A study of Mus musculus with 6 samples.

Results

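The genes described here encode the pyruvate dehydrogenase complex, the enzymes of the citric acid cycle and of mitochondrial fatty acid oxidation, and a few of their regulators. They were taken by symbol from a list of 41 genes, and 40 of these are among the 14016 rows of the deposited table, of which 1 has no symbol. Eci1, an enoyl-CoA isomerase that shifts double bonds during the oxidation of unsaturated fatty acids, is not listed under that symbol or an older one. Bulk RNA sequencing was performed on injured quadriceps muscle from 3 WT mice and 3 mice labelled GATA-1 mutant, the eosinophil-deficient ΔdblGATA strain, which carries a deletion in a Gata1 promoter in all its cells. All 6 mice had volumetric muscle loss, a surgical defect of the muscle, received no implant, and were sampled on day 7. In the study's control injuries, made in both legs, the defect was filled with sterile saline. The study's methods describe young adult female C57BL/6 mice as its WT animals, and an age was not found for the mutant mice in the sources used here.

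The value used for each gene is the authors' mean log2 CPM (read counts scaled to a common library total, on a log2 scale). From its column heading it was read as a mean over the mice of both genotypes, and the samples it covers are not stated. With 1 value per gene, the mean shows how strongly a gene was represented in this injured muscle and not whether the genotypes differed. No spread between mice, no depth per sample and no test belong to it, and differences between genes are given without a statement on whether they exceed the variation between mice. Because a longer transcript yields more reads, genes were compared with each other per length, as mean log2 CPM per kilobase of the longest coding transcript in GENCODE M21. A percentile is the percent of the 13945 genes with a length that lay lower on that scale.

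Pyruvate from glycolysis enters mitochondria and is converted to acetyl-CoA by the pyruvate dehydrogenase complex, which its kinases switch off. Fatty acids reach the same acetyl-CoA by another route. They are activated with coenzyme A, carried across the mitochondrial membrane on carnitine, and shortened in repeated rounds of beta-oxidation. The citric acid cycle then burns acetyl-CoA to carbon dioxide and passes electrons to the respiratory chain. Skeletal muscle fibres switch between these fuels with activity and feeding.

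The labelled tissue was checked against marker genes before the members were described. All 10 markers of skeletal muscle fibres are listed, among them Acta1 at a mean log2 CPM of 14.30 and Ckm at 12.45. All 6 macrophage markers are listed, with Adgre1 found under its older symbol, and so are all 4 fibroblast, 3 endothelial and 3 adipocyte markers. The adipocyte markers were unequal, with Adipoq at a mean log2 CPM of 6.60, Cidec at 5.97 and Plin1 at 0.87. Of 4 neutrophil markers 2 are listed, S100a8 at a mean log2 CPM of 0.52 and S100a9 at -0.50, and Ly6g and Mpo are not. Of 8 eosinophil markers only Ear2 is listed, at a mean log2 CPM of 0.13, and Siglecf, Ccr3, Epx and Prg2 are not. The heart and liver markers that served as a check were at most at a mean log2 CPM of -1.41, with 1 of 3 listed in each set. Under the filter the authors describe, a listed gene should have exceeded 1 CPM, a log2 CPM of 0, in 3 or more samples. Pooled means fell to -3.46 for the heart marker Myh6 and to -4.08 for the lowest gene. Over 6 mice such values are hard to square with that filter, and this could not be checked without values per mouse. A pooled mean below 0, as for these markers and S100a9, does not show that the gene was absent from every mouse, and 1198 genes had one. In bulk tissue a level reflects both the number of cells of each type and the RNA per cell, and these cannot be told apart.

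Most members were among the more strongly represented genes of the tissue. Per kilobase, 31 of the 40 listed members lay above the 90th percentile of all genes, and 3 lay below the median. Their median was 6.48 in mean log2 CPM per kilobase, against 2.28 for all genes with a length, and the median member lay at the 95.8th percentile. Before division by length, the members' mean log2 CPM had a median of 7.70 and a range of 2.66 to 9.29, and the median over all genes was 4.03. The members together held 0.961% of the CPM summed over the table. The listed members lie on 17 chromosomes. Of the 40, 20 share no run of 31 bases with another annotated gene, 4 share most of theirs, and 9 overlap another gene of the table on the opposite strand. The high standing of the group describes a list picked for known roles in these pathways, and no test was run on it.

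**Figure D1:**
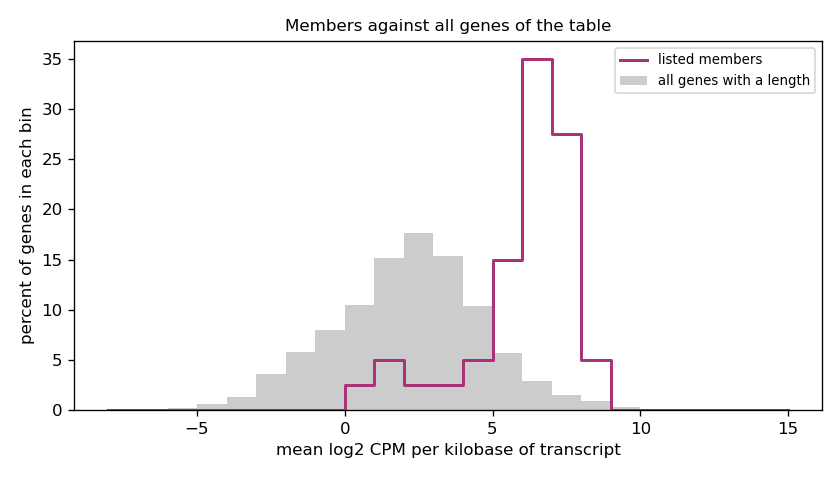
Histogram of the mean log2 CPM per kilobase of transcript (x axis) in bins of 1 unit, with the percent of genes in each bin on the y axis, for all 13945 genes with a length (grey bars) and the 40 listed members (line). All genes peak between 2 and 3, while the bins from 6 to 8 hold 14 and 11 members.

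The sequence before the start of transcription was examined for what the members share, using RefSeq promoter sequences of GRCm38.p6, each from 250 bases before to 50 bases after an annotated start. Such sequences were found for 36 listed members, and not for Acaa2, Cpt1b, Decr1 and Idh3a. Median GC content was 60.7% in the members' promoters and 60.3% in those of all genes of the table. Letters were searched on both strands. A core of the site of NRF1, nuclear respiratory factor 1, which is known to act on nuclear genes of mitochondrial proteins, was searched as GCGCATGCG and found in 4 of the 36 members, or 11.1%, against 3.91% of the 10365 genes of the table with a promoter and 1.95% of all 27025 genes with one. Among the 56 further genes of the same pathways with a promoter it was found in 2, or 3.57%. The 4 members were Acadm, Etfdh, Ogdh and Ppara. CCGGAAGTG, a form of the site of ETS factors such as GABP, was found in 2 members, Cpt2 and Dlst, or 5.56%, against 4.44% of the genes of the table, 2.25% of all genes with a promoter and 1 of the 56 further pathway genes (1.79%). TCAAGGTCA is a form of the element of the oestrogen-related receptors that act with PGC-1α, and other forms of this length were not searched. This form was found in 0 of the 36 members and in 0.338% of the genes of the table. It was found in 0.466% of all genes with a promoter and in 2 of the 56 further pathway genes (3.57%). AGGTCA, the core hexamer of nuclear receptor sites and a part of the letters of the preceding element, was found in 8 members (22.2%), in 15.3% of the genes of the table, in 18.1% of all genes with a promoter and in 11 of the 56 further pathway genes (19.6%).

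The stretches that hold the NRF1 core are shown because the genes carrying it had very different levels per kilobase, from Ogdh to Ppara. Each is written 5′ to 3′ on the strand of the gene, ends at the last base before an annotated start, holds no base of an annotated exon, and has the match in capitals. In Acadm the stretch is on the minus strand at chr3:153944644-153944893, and the match is at position -159 from the start. In Ogdh it is on the plus strand at chr11:6292514-6292557, with the match at position -15 from one of several annotated starts. In Ppara it is on the plus strand at chr15:85735714-85735775, where matches on both strands overlap. The Ogdh and Ppara stretches lie inside the annotated genes, which begin further upstream at 6291633 and 85734983, so they precede a later annotated start. The match of Etfdh lies in an annotated exon and is not shown.
Acadm: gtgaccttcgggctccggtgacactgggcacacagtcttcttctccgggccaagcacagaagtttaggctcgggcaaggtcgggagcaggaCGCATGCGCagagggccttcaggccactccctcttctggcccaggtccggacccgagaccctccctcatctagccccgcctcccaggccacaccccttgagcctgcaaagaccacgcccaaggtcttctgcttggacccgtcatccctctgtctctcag
Ogdh: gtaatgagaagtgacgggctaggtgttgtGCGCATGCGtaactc
Ppara: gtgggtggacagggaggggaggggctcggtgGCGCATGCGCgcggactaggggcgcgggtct
A match is a run of letters and not a measured binding site. Per kilobase of transcript, these genes were far apart, at a mean log2 CPM of 7.24 for Ogdh, 6.82 for Acadm and 0.89 for Ppara.

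The subunits of the first enzyme of the pyruvate dehydrogenase complex were among the highest members. Pdha1 and Pdhb encode its alpha and beta subunits, and it decarboxylates pyruvate. They had mean log2 CPM values of 9.22 and 8.40, and per kilobase 7.71 and 7.81. Dlat, the acetyltransferase core of the complex, had a mean log2 CPM of 7.77 and 5.75 per kilobase. Dld, the lipoamide dehydrogenase that regenerates the cofactor and also serves the oxoglutarate dehydrogenase complex, had 8.13 and 6.78 per kilobase. Pdhx, the binding protein that anchors Dld to the core, was the lowest of the 5 at 6.04, or 4.71 per kilobase, at the 85.9th percentile. Per kilobase Pdhb lay 8.53-fold above Pdhx, and between 7.19-fold and 16.6-fold above it over the lengths tried. Which of Pdha1 and Pdhb was higher depended on the length used.

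Both kinases on the list, which phosphorylate and inactivate Pdha1, were above the 90th percentile per kilobase. Pdk2, a widely expressed kinase, had a mean log2 CPM of 8.11 and Pdk4, whose gene is known to be induced by fasting and fatty acids, one of 8.0. Per kilobase Pdk4 was at 6.20 and Pdk2 at 6.94, and the order was not the same under all lengths. The related kinases outside the list were lower per kilobase, with Pdk1 at 3.61 and Pdk3 at 1.32. Pdp1, a phosphatase that switches the complex back on, was at 3.91 per kilobase.

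The citric acid cycle genes spread over the widest range, and 10 of 13 were above the 90th percentile per kilobase. Mdh2, the mitochondrial malate dehydrogenase, had a mean log2 CPM of 9.21 and the highest level of all members per kilobase, 8.67, at the 99.2nd percentile. With the median transcript length Pdha1 was above it, at 9.78 against 9.67, and with the coding length Fabp3, at 9.21 against 9.19. Cs, the citrate synthase that joins acetyl-CoA to oxaloacetate, had a mean log2 CPM of 9.21 and 7.66 per kilobase. Ogdh, the first enzyme of the oxoglutarate dehydrogenase complex, had a mean log2 CPM of 9.29 and 7.24 per kilobase, at the 97.4th percentile. Its partner Dlst, the succinyltransferase core, had a mean log2 CPM of 7.50 and 6.03 per kilobase, and the order of Ogdh and Dlst changed with the length. Fh1, the fumarase, had 7.85 and 6.45 per kilobase. Sdha, a succinate dehydrogenase subunit of the same cycle that is not on the list, stood at 8.01 per kilobase.

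The 3 subunits of the NAD-dependent isocitrate dehydrogenase were unequal. Idh3g, a regulatory subunit, had a mean log2 CPM of 8.09 and 7.68 per kilobase. Idh3a, which carries the catalytic site, had 6.80 and 5.44 per kilobase, and Idh3b, the other non-catalytic subunit, 5.79 and 5.10 per kilobase. Idh3g lay 4.74-fold above Idh3a per kilobase, and from 2.39-fold to 8.37-fold above it over the lengths tried, while the order of Idh3a and Idh3b changed with the length. The gene span of Idh3b overlaps that of Nop56 on the other strand, which had a mean log2 CPM of 5.15, but no 31-base word of the Idh3b transcript used here occurs in another gene. Idh2, the NADP-dependent enzyme of mitochondria, lay above Idh3a under each length, by between 1.52-fold and 4.81-fold.

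Succinyl-CoA synthetase pairs a shared subunit, Suclg1, with one of 2 partners that make the enzyme form ATP or GTP. Sucla2, the ATP-forming partner, had a mean log2 CPM of 8.44 and 7.29 per kilobase. Suclg2, the GTP-forming partner, had 4.98 and 3.23 per kilobase, at the 66.5th percentile. The ratio of Sucla2 to Suclg2 per kilobase was 16.7, and 10.3 to 19.2 over the lengths tried. Suclg1 was closer to Sucla2, at 6.79 per kilobase.

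The cytosolic malate dehydrogenase gene Mdh1, whose enzyme passes reducing equivalents between cytosol and mitochondria, was the member of this route furthest from the others. Its mean log2 CPM was 2.76, and per kilobase it was at 1.68, the 39.9th percentile. Mdh2 lay 127-fold above Mdh1 per kilobase, and at least 74.9-fold above it under the lengths tried. No 31-base word of the longest coding transcript of Mdh1 occurs in transcripts of other genes in GENCODE M21. Its gene, at chr11:21556787-21572367 of GRCm38, overlaps Wdpcp on the other strand, which had a mean log2 CPM of 1.89. Whether this value reflects the muscle or how reads were assigned to the gene was not tested.

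**Figure D2:**
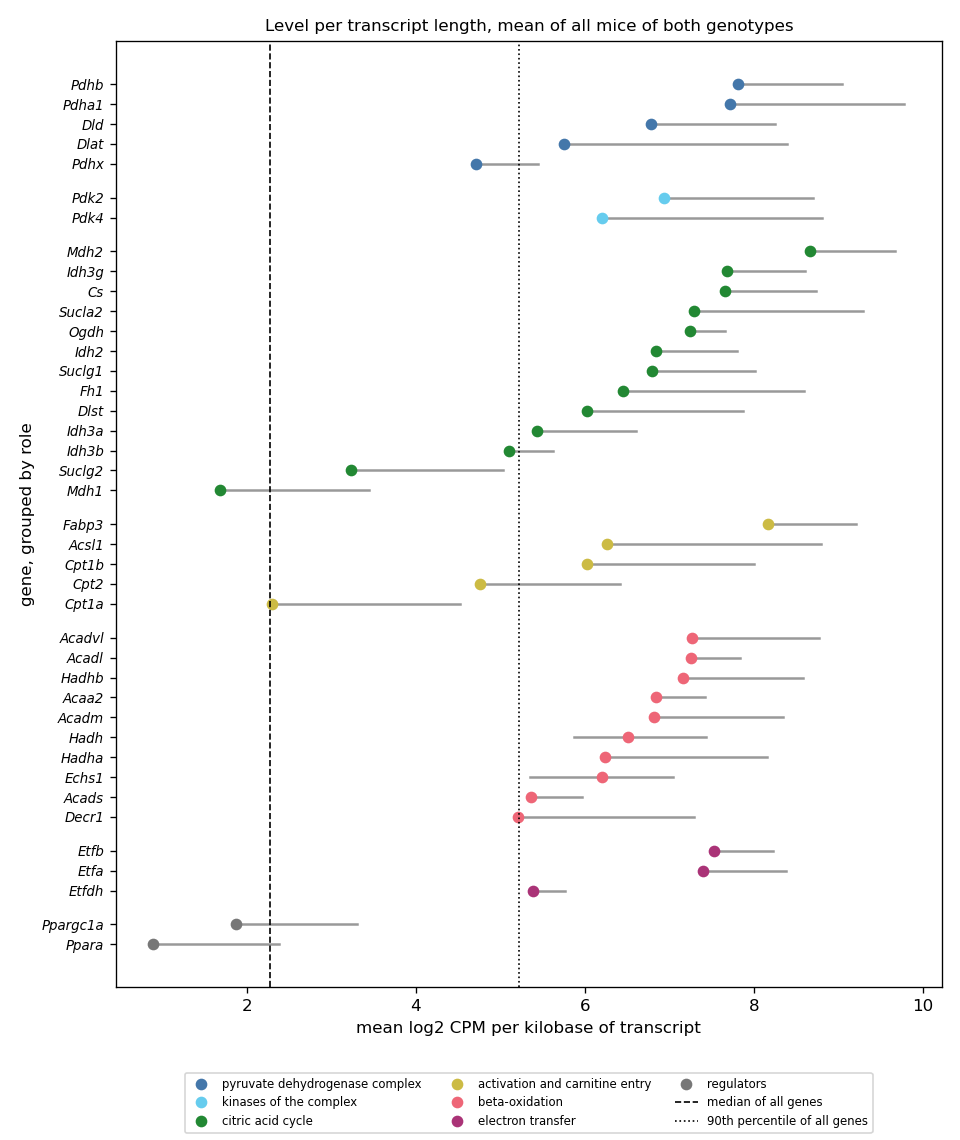
Mean log2 CPM per kilobase (x axis) of each of the 40 listed members (y axis, grouped and coloured by role). Points use the longest coding transcript, grey lines span the values over the 3 lengths tried, and vertical lines mark the median (2.28) and the 90th percentile (5.22) of all genes. Mdh1, Suclg2, Cpt1a, Ppargc1a and Ppara stand to the left of the rest.

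Fatty acid binding, activation and entry genes included a high and a low form of the same enzyme. Fabp3, which carries fatty acids in the cytosol of muscle fibres, had a mean log2 CPM of 7.88 and 8.16 per kilobase, second among the members to Mdh2 with the longest coding transcript. With the median transcript length it stayed at 8.16, below Pdha1, Mdh2, Sucla2, Pdhb, Pdk4 and Acsl1 among others. Runs of 31 bases of Fabp3 recur elsewhere for 50.1% of its transcript, in Fabp3-ps1, Zcchc17 and Gm10570, so its value is uncertain. Acsl1, which activates long-chain fatty acids with coenzyme A, had 8.23 and 6.26 per kilobase. Carnitine palmitoyltransferase 1, which controls entry into mitochondria, has a muscle form, Cpt1b, and a liver form, Cpt1a. Cpt1b had a mean log2 CPM of 7.56 and 6.02 per kilobase, and Cpt1a 4.41 and 2.30 per kilobase, at the 50.4th percentile. Cpt1b lay 13.2-fold above Cpt1a per kilobase, and 8.84-fold at the least over the lengths. In GENCODE M21 93.7% of the 31-base words of Cpt1b also occur in Gm44502, a gene that is not listed in the table, so the level of Cpt1b may depend on how reads of the pair were divided. Cpt2, the inner-membrane enzyme of the same shuttle, had 6.01 and 4.76 per kilobase, and Slc25a20, the carnitine carrier outside the list, 5.41 per kilobase.

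The beta-oxidation enzymes spanned a narrower range than the other groups of 5 or more genes. Of their 10 listed genes, 9 were above the 90th percentile per kilobase. Decr1, an auxiliary reductase for unsaturated fatty acids, had a mean log2 CPM of 6.78 and lay just below that percentile at 5.21 per kilobase. With the median transcript length Echs1 was the lowest of the group, at 5.36, and Decr1 was at 7.29. The acyl-CoA dehydrogenases, which take the first step on chains of different length, had mean log2 CPM values of 8.39 for Acadvl, 8.20 for Acadl, 7.85 for Acadm and 6.27 for Acads. Per kilobase the very-long-chain enzyme Acadvl was at 7.27, the long-chain enzyme Acadl at 7.26, the medium-chain enzyme Acadm at 6.82 and the short-chain enzyme Acads at 5.37. Acadl lay between 3.65-fold and 3.73-fold above Acads over the lengths tried, whereas the order of Acadl and Acadm changed.

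Hadha and Hadhb encode the subunits of the trifunctional protein, which carries out the later steps on long chains. They had mean log2 CPM values of 8.25 and 8.19, and per kilobase 6.24 and 7.16. Hadhb was above Hadha under each length, by between 1.35-fold and 1.89-fold, but 65.6% of the 31-base words of Hadhb recur elsewhere, first in Gm13910 and Gm9108, which are not listed. For shorter chains, the hydratase Echs1 had a mean log2 CPM of 6.84 and 6.20 per kilobase, the dehydrogenase Hadh 7.35 and 6.51, and the thiolase Acaa2 7.44 and 6.84. Ech1 and Eci2, which act on unsaturated chains and are not on the list, were at 7.03 and 5.21 per kilobase.

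Electron transfer flavoprotein collects electrons from the acyl-CoA dehydrogenases and hands them to the respiratory chain through Etfdh. Its subunits Etfa and Etfb had mean log2 CPM values of 7.88 and 7.37, and per kilobase 7.40 and 7.53, with an order that changed with the length. For Etfb, 68.0% of the 31-base words are not unique to the gene, and Gm45233 shares the most of them. Etfdh was lower, at a mean log2 CPM of 6.64 and 5.39 per kilobase. Etfa lay 4.03-fold above Etfdh per kilobase, and up to 6.16-fold over the lengths tried.

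The regulators were lower than most enzymes. Ppargc1a, which encodes the coactivator PGC-1α of mitochondrial genes, had a mean log2 CPM of 4.56 and 1.87 per kilobase, at the 43.0th percentile. Ppara, the nuclear receptor that responds to fatty acids, had a mean log2 CPM of 2.66 and 0.89 per kilobase, the lowest of the members under each length, at the 28.8th percentile. Among related regulators outside the list, Esrra was at 5.00 per kilobase, Ppard at 3.31, Ppargc1b at 2.33 and Pparg at 1.78. Ppargc1a has the longest transcript of the members, 6464 nt.

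**Figure D3:**
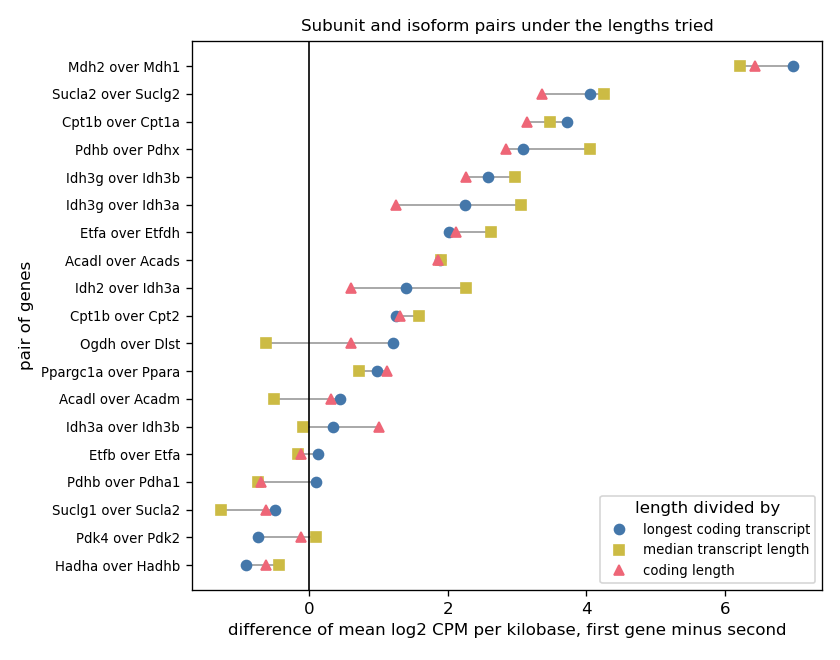
Difference in mean log2 CPM per kilobase between the first and the second gene (x axis) of 19 pairs of subunits, isoforms or steps (y axis), with each symbol standing for 1 of the 3 lengths divided by. For 13 pairs all symbols lie on one side of 0, and for 6 they lie on both sides.

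A further 70 genes of the same pathways, taken from a separate list, are all in the table. Of these, 21 were above the 90th percentile and 18 below the median per kilobase, and their median was 3.61 in mean log2 CPM per kilobase. The list is broader in function than the 41 members, and the difference was not tested. Fabp4, a fatty acid binding protein of adipocytes, endothelium and macrophages, was the highest of them at 9.30 per kilobase, above each of the listed members, but with the median transcript length it was at 7.79, below Mdh2. Ogdhl, a relative of Ogdh, was at -4.38.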

How the data were processed

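Poly(A) RNA of injured quadriceps from 3 WT and 3 GATA-1 mutant mice was sequenced as paired-end reads. By their methods, the authors pseudoaligned them with Kallisto, assigned genes in R and computed CPM with edgeR. The methods also describe a filter for genes exceeding 1 CPM in 3 or more samples, a log transform and TMM normalization. The submitters' processing notes name GRCm39 and mm39, and the annotation release is not given in the sources used here. The deposited table holds the authors' limma comparison of the genotypes (log2 fold change, moderated t, p-values and log odds), which was not used, and a mean log2 CPM per gene. That log2 mean by the authors, read as covering both genotypes, is the only value used. Groups follow the genotype labels. Depth per sample is unknown, and no difference between genotypes was analysed here.

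Symbols were matched to GENCODE M21 (GRCm38), which gave a length for 13945 of 14016 rows, 487 through another symbol. Coordinates are those of GRCm38, not of the authors' build. The log2 length in kilobases was subtracted, and ranks and 31-base words shared with other genes, on either strand, were computed in Python 3.11.15 with pandas 2.3.3. The longest transcript was used where none is coding. These functions were tested on simulated data. Motifs and pairs of genes were chosen after levels had been seen, and the members and lists with earlier results of these data known. All 41 members are named by rule, and further pathway genes only as examples. Alternatives were other lengths, minimum levels, coding genes only, and leaving out genes that share most of their words.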

Additional observations from a re-analysis of the deposited data

How the results depend on the processing

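No paired analysis was possible because only a mean over all mice was analysed, and for the same reason the tests between genotypes, the fits leaving out each mouse and the other centring were not run. The median mean log2 CPM of the members was 7.81 instead of 7.70 with a minimum of 3, and did not move with a minimum of 1. Their median percentile by mean log2 CPM was 96.2 over all genes, 96.2 over coding genes, 95.6 with a minimum mean log2 CPM of 1 and 94.8 with a minimum of 3. Per kilobase, the median was 7.94 with the median transcript length and 7.22 with the coding length, against 6.48, and the median percentile 96.6 and 93.7, against 95.8. By either scale, and among coding genes, 31 members were above the 90th percentile, and 27 after leaving out the 4 that share most of their words.

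With the median transcript length the log2 difference per kilobase changed sign for Pdk4 over Pdk2 (0.10), Pdhb over Pdha1 (-0.74), Idh3a over Idh3b (-0.089), Etfb over Etfa (-0.16), Acadl over Acadm (-0.51) and Ogdh over Dlst (-0.62). With the coding length it did so for Pdhb over Pdha1 (-0.70) and Etfb over Etfa (-0.12). The median transcript length was taken over all annotated transcripts of a gene, non-coding ones included. It can therefore be shorter than the coding length, as for Dlst at 770 against 1362 nt. Lengths are those of annotated transcripts and not of the isoforms expressed in this muscle, so folds between genes carry at least the range shown. The alternative lengths for pairs and the filter on shared words were chosen after seeing the data.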
